A study of Homo sapiens with 4 samples.

Results

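The genes described here encode the subunits of respiratory complex III, respiratory complex IV and ATP synthase in COLO205, a human colon adenocarcinoma cell line. They were taken from the deposited table by symbol, as every gene whose name begins with UQCR, with COX followed by 4 to 8, or with ATP5, together with CYC1 and the 6 genes of these complexes on the mitochondrial genome. This gave 52 of 19970 genes, of which 46 are nuclear. Complex III holds 11 of them, complex IV 20 and ATP synthase 21. The cells received nonylphenol (NP), an alkylphenol with estrogen-like activity, at 1 µM for 24 h, or served as control. Their RNA was sequenced in 2 NP samples and 2 control samples. The study dissolved NP in dimethyl sulfoxide (DMSO), and its account of the sequencing names no solvent for the controls. All 4 samples are of the same cell line. Nothing in the labels says whether samples with the same number shared a culture, so the p-values rest on a spread between samples that may be only technical.

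Complex III passes electrons from ubiquinol to cytochrome c, complex IV passes them from cytochrome c to oxygen, and both pump protons out of the mitochondrial matrix. ATP synthase lets the protons flow back through its rotating c ring and uses this to make ATP in its F1 head. Cytochrome b of complex III, the 3 core subunits of complex IV and 2 membrane subunits of ATP synthase are encoded by mitochondrial DNA and transcribed in the mitochondrion, whereas all other subunits are nuclear genes whose proteins are imported, so each complex needs products of both genomes.

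The counts of a sample summed to between 13401691 and 16998129. Levels are given as CPM, counts per 1000000 after scaling of the libraries with TMM, and in FPKM, which is also divided by gene length, where genes are compared with each other. Of the 11 markers of colon epithelium, all were detected, with summed levels of 7520 to 7602 CPM. KRT8 alone had 3190.5 to 3327.5 CPM, while CDX2 had 3.52 to 4.46 CPM and KRT20 1.46 to 1.94 CPM. PTPRC and CD3E of leukocytes, COL1A2 and COL3A1 of fibroblasts and KDR of endothelium had no counts. Of the other markers of these cells, COL1A1 had 41 to 56 counts a sample, PDGFRB 27 to 45, CD14 12 to 33 and LUM 4 to 10. The fibroblast markers summed to 5.67 to 6.11 CPM and the endothelial ones to 0 to 0.236 CPM. The leukocyte marker LYZ was far higher, with 333.2 and 327.9 CPM in control and 364.5 and 347.5 CPM in NP samples (log2 fold change 0.11, edgeR adjusted p = 0.047). In bulk RNA, a change in the number of cells and a change in RNA per cell cannot be told apart.

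NP samples held more RNA of the nuclear subunits, by small amounts, and slightly less RNA of the mitochondrial gene of the catalytic subunit of complex IV. Of the 52 genes, 45 passed the filter on low counts and could be tested. In the quasi-likelihood test of edgeR, adjusted over all 12616 tested genes, 9 of the 45 rose with NP, 1 fell and 35 did not pass an adjusted p of 0.05. The 9 are 20% of the tested subunit genes, and over all tested genes 2.35% were called higher. The 1 is 2.22%, beside 1.70% of all tested genes called lower. All 9 that rose are nuclear, and the 1 that fell, MT-CO1, is mitochondrial. No change reached 2-fold. The median log2 fold change was 0.13 over the 39 tested nuclear genes and -0.034 over the 6 mitochondrial genes, beside 0.0015 over all tested genes. In 26 of the 39 nuclear genes both NP samples lay above both control samples, and in 1 both lay below. Over all tested genes these shares were 22.5% and 21.7%.

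**Figure D1:**
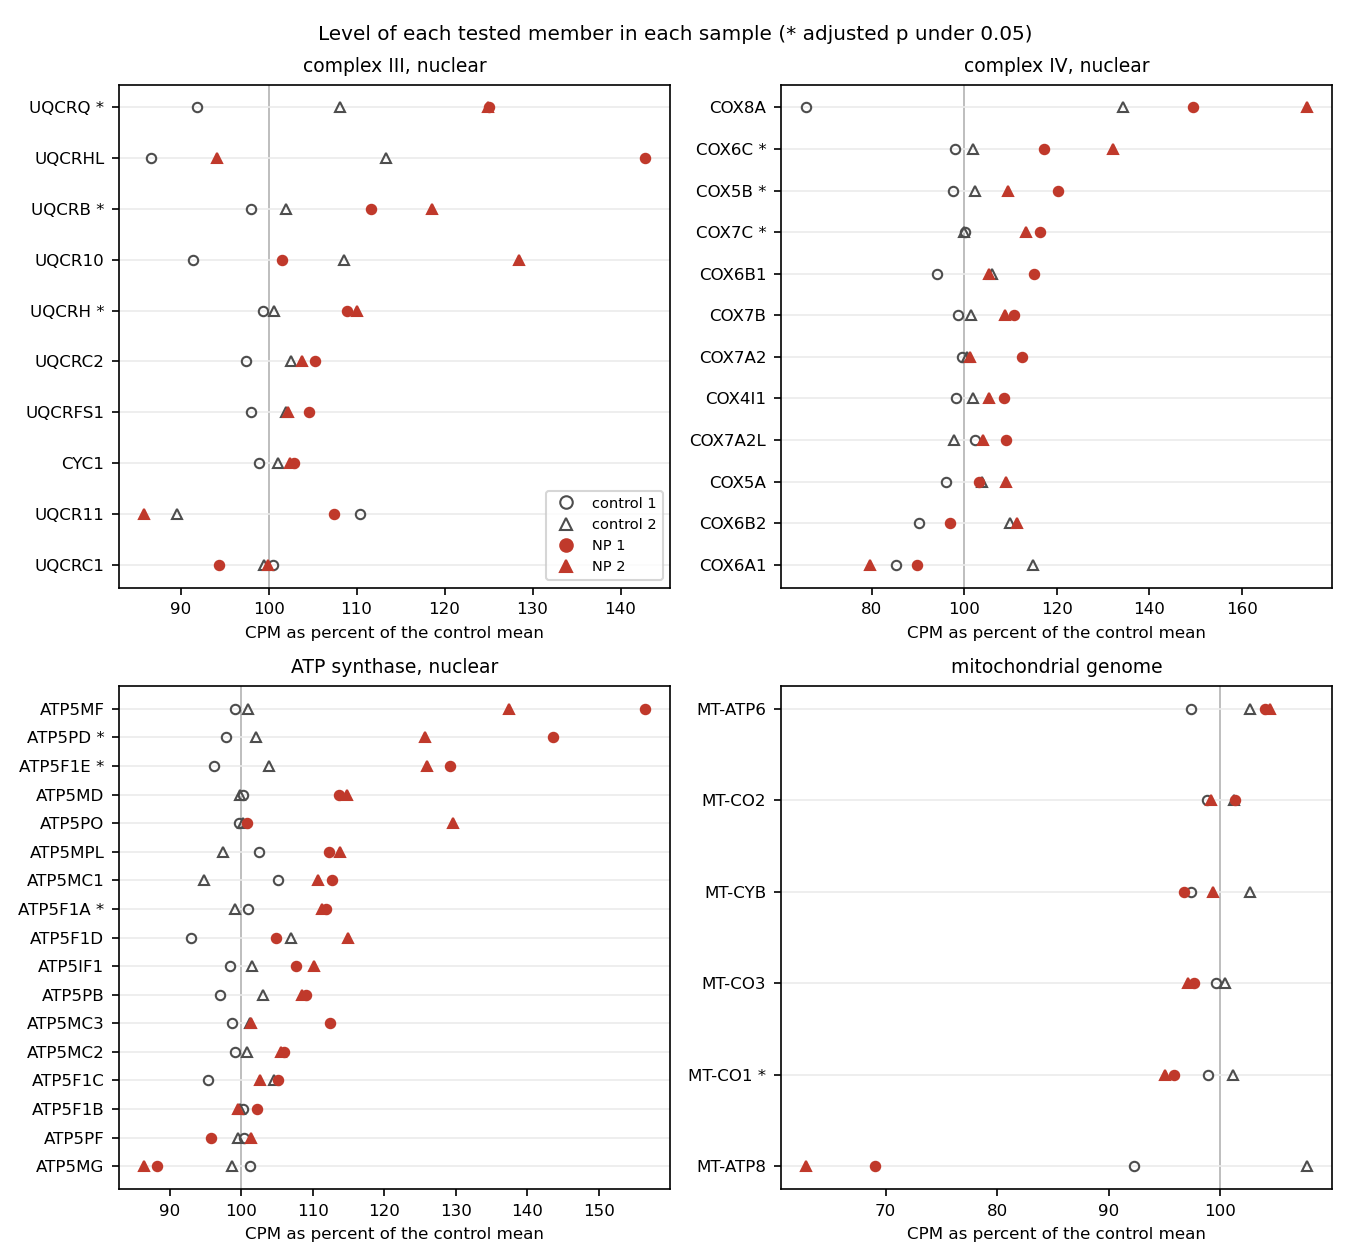
Level of each of the 45 tested subunit genes in each sample, as CPM in percent of the control mean (x axis, its range differs between panels), in 1 panel for each complex and 1 for the mitochondrial genome. Open grey points are control and filled red points NP samples, with circles for sample 1 and triangles for sample 2, and an asterisk marks an adjusted p under 0.05. In 26 of 39 nuclear genes both red points lie to the right of both grey points, which is so for 1 of the 6 mitochondrial genes.

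In ATP synthase 3 of 17 tested nuclear genes rose (17.6%, beside 2.35% of all tested genes) and none fell. ATP5F1E (ENSG00000124172, chromosome 20, 59025475 to 59032345, minus strand) encodes the epsilon subunit of the central stalk. Its level was 96.9 and 104.7 CPM in control and 130.2 and 127.0 CPM in NP samples. The groups did not overlap, and the log2 fold change of 0.35 (standard error, SE, 0.047, edgeR adjusted p = 1.19e-07) was the change with the smallest p among the subunit genes. ATP5F1A (ENSG00000152234, chromosome 18, 46080248 to 46104334, minus strand) encodes the alpha subunit, which alternates with the catalytic beta subunit in the F1 head. It was at 268.9 and 263.9 CPM in control and at 297.8 and 296.4 CPM in NP samples, a log2 fold change of 0.16 (SE 0.034, edgeR adjusted p = 0.00187). Each group was narrow beside the gap between them. ATP5PD (ENSG00000167863, chromosome 17, 75038863 to 75046985, minus strand) encodes subunit d of the peripheral stalk, which holds the head still while the ring turns. It rose from 19.1 and 19.9 CPM to 28.0 and 24.5 CPM, with a log2 fold change of 0.44 (SE 0.0995, edgeR adjusted p = 0.00326), and here the NP samples lay further apart than the controls.

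Within the F1 head the subunits did not have the same values. ATP5F1B, the catalytic beta subunit and the most abundant nuclear gene of the 46 by FPKM, had 974.7 and 971.1 CPM in control and 994.3 and 968.4 CPM in NP samples. The groups overlapped, and the log2 fold change was 0.013 (SE 0.027, edgeR adjusted p = 0.89). ATP5F1C, the gamma subunit that turns inside the head, had 240.7 and 264.2 CPM in control and 265.6 and 259.2 CPM in NP samples, again with overlap (0.056, SE 0.037). ATP5F1D, the delta subunit of the central stalk, had a log2 fold change of 0.13 (SE 0.067), and its groups overlapped too. Whether ATP5F1E differed in its change from ATP5F1B was not tested.

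The c ring is made of 1 protein encoded by 3 genes, whose precursors differ in the sequence that directs import. ATP5MC1 had 70.5 and 63.6 CPM in control and 75.6 and 74.3 CPM in NP samples. ATP5MC2 had 130.7 and 132.9 CPM in control and 139.7 and 139.2 CPM in NP samples. ATP5MC3 had 120.4 and 123.4 CPM in control and 137.1 and 123.5 CPM in NP samples. In each of the 3 both NP samples lay above both controls, and none passed the test (fold changes of 0.16, 0.081 and 0.10 on the log2 scale, with edgeR adjusted p = 0.12, 0.38 and 0.27). ATP5IF1, which inhibits ATP hydrolysis by the enzyme, had 152.1 and 156.8 CPM in control and 166.4 and 170.2 CPM in NP samples, with edgeR adjusted p = 0.077. ATP5PB, subunit b of the peripheral stalk, had 137.3 and 145.9 CPM in control and 154.4 and 153.7 CPM in NP samples, with edgeR adjusted p = 0.098. ATP5MF, subunit f of the membrane part, had only 4.90 and 4.99 CPM in control and 7.74 and 6.80 CPM in NP samples. Its log2 fold change of 0.56 (SE 0.19, edgeR adjusted p = 0.073) was larger than that of any subunit that rose, at a level that gave 77 to 131 counts a sample. ATP5MG, subunit g, was the 1 nuclear gene whose NP samples both lay below the controls, with 12.6 and 12.3 CPM in control and 10.99 and 10.76 CPM in NP samples (-0.19, SE 0.13, edgeR adjusted p = 0.54).

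In complex IV 3 of 12 tested nuclear genes rose (25%, beside 2.35% of all tested genes) and none fell. COX7C (ENSG00000127184, chromosome 5, 86617928 to 86620962, plus strand), a small accessory subunit, had 172.8 and 172.3 CPM in control and 200.6 and 195.4 CPM in NP samples. The log2 fold change was 0.20 (SE 0.039, edgeR adjusted p = 0.000403), and the controls differed from each other by much less than from either NP sample. COX5B (ENSG00000135940, chromosome 2, 97646062 to 97648383, plus strand), the zinc-binding subunit on the matrix side, had 125.6 and 131.7 CPM in control and 154.8 and 140.8 CPM in NP samples (0.20, SE 0.045, edgeR adjusted p = 0.00207). COX6C (ENSG00000164919, on chromosome 8), another accessory subunit, had 28.4 and 29.5 CPM in control and 34.0 and 38.3 CPM in NP samples (0.31, SE 0.084, edgeR adjusted p = 0.0173). The groups did not overlap in any of the 3.

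Among the other subunits of complex IV, COX4I1, which takes part in the control of the enzyme by ATP, had 368.8 and 382.1 CPM in control and 407.5 and 395.4 CPM in NP samples, with edgeR adjusted p = 0.073. COX7B had 115.0 and 118.2 CPM in control and 129.1 and 126.9 CPM in NP samples, with edgeR adjusted p = 0.075. Both had groups that did not overlap. COX6B1, which helps to hold the dimer together, overlapped in its groups, with 89.6 and 100.8 CPM in control and 109.6 and 100.3 CPM in NP samples (0.14, SE 0.052, edgeR adjusted p = 0.11). COX8A, with the largest fitted change of all subunit genes, had 1.97 and 4.03 CPM in control and 4.49 and 5.23 CPM in NP samples. Its controls differed from each other by more than control 2 from either NP sample, and it did not pass (0.69, SE 0.25, edgeR adjusted p = 0.13). Without control 2 it had a log2 fold change of 1.29 and passed (adjusted p = 0.015), on counts of 31 to 76 a sample.

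Several subunits of complex IV come as a common form and a form tied to one tissue, and COLO205 samples held the common forms in most pairs. COX4I2, the lung form, COX6A2, the heart and muscle form, and COX7B2 and COX8C, known from testis, had 0 counts in all 4 samples, which allows up to 0.0486 CPM over the 4 libraries. COX7A1, the heart and muscle form, had 2 and 1 counts in control and 8 and 5 counts in NP samples. The ratio of its summed counts was 4.46 (exact 95% interval 1.23 to 24.4, for counting error only), and at 16 counts in all it was not tested across samples. The common form COX7A2 had 64.2 and 64.8 CPM in control and 72.5 and 65.3 CPM in NP samples. COX7A2L, a related protein that joins complexes III and IV in supercomplexes, had 117.3 and 112.2 CPM in control and 125.1 and 119.3 CPM in NP samples, with edgeR adjusted p = 0.32. COX6B2, the testis form, had 2.42 and 2.94 CPM in control and 2.60 and 2.99 CPM in NP samples. COX6A1, the common form beside COX6A2, was counted at 2.80 and 3.78 CPM in control and 2.95 and 2.61 CPM in NP samples, a level as low as that of COX8A, the common form beside COX8C. Both share exon bases with another gene, as described further on.

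In complex III 3 of 10 tested nuclear genes rose (30%, beside 2.35% of all tested genes), all of them small accessory subunits. UQCRB (ENSG00000156467, on chromosome 8), which binds ubiquinone, had 68.2 and 71.0 CPM in control and 77.7 and 82.6 CPM in NP samples, a log2 fold change of 0.20 (SE 0.057, edgeR adjusted p = 0.0256). UQCRQ (ENSG00000164405, chromosome 5, 132866630 to 132868847, plus strand) had 22.0 and 25.9 CPM in control and 29.9 and 29.9 CPM in NP samples (0.32, SE 0.093, edgeR adjusted p = 0.0298). UQCRH (ENSG00000173660, chromosome 1, 46303698 to 46316776, plus strand), the hinge protein between cytochrome c1 and cytochrome c, had 181.2 and 183.6 CPM in control and 198.6 and 200.7 CPM in NP samples (0.13, SE 0.039, edgeR adjusted p = 0.0361). The NP samples of each lay above both controls. Without control 1 none of the 3 passed. With each sample left out in turn, UQCRB and UQCRQ passed in 1 of 4 fits each and UQCRH in 0 of 4, and in DESeq2 UQCRB (adjusted p = 0.18) and UQCRH (0.18) did not pass. UQCRH shares 29.4% of its 50-base words with UQCRHL, a retained gene copy on the same chromosome, so that reads of the pair may have been divided. UQCRHL itself had 2.55 and 3.33 CPM in control and 4.19 and 2.76 CPM in NP samples.

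None of the 4 nuclear core subunits of complex III passed. CYC1, cytochrome c1, had 196.5 and 200.9 CPM in control and 204.4 and 203.5 CPM in NP samples (0.038, SE 0.038, edgeR adjusted p = 0.71). UQCRC2 and UQCRFS1, the Rieske iron-sulfur protein, had log2 fold changes of 0.065 and 0.049, and UQCRC1 had -0.043 (SE 0.039), with NP values of 180.3 and 191.0 CPM beside 192.0 and 190.1 CPM in control. The median log2 fold change was 0.043 over the 4 core subunits and 0.19 over the 6 accessory subunits. This difference between the groups was not tested.

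**Figure D2:**
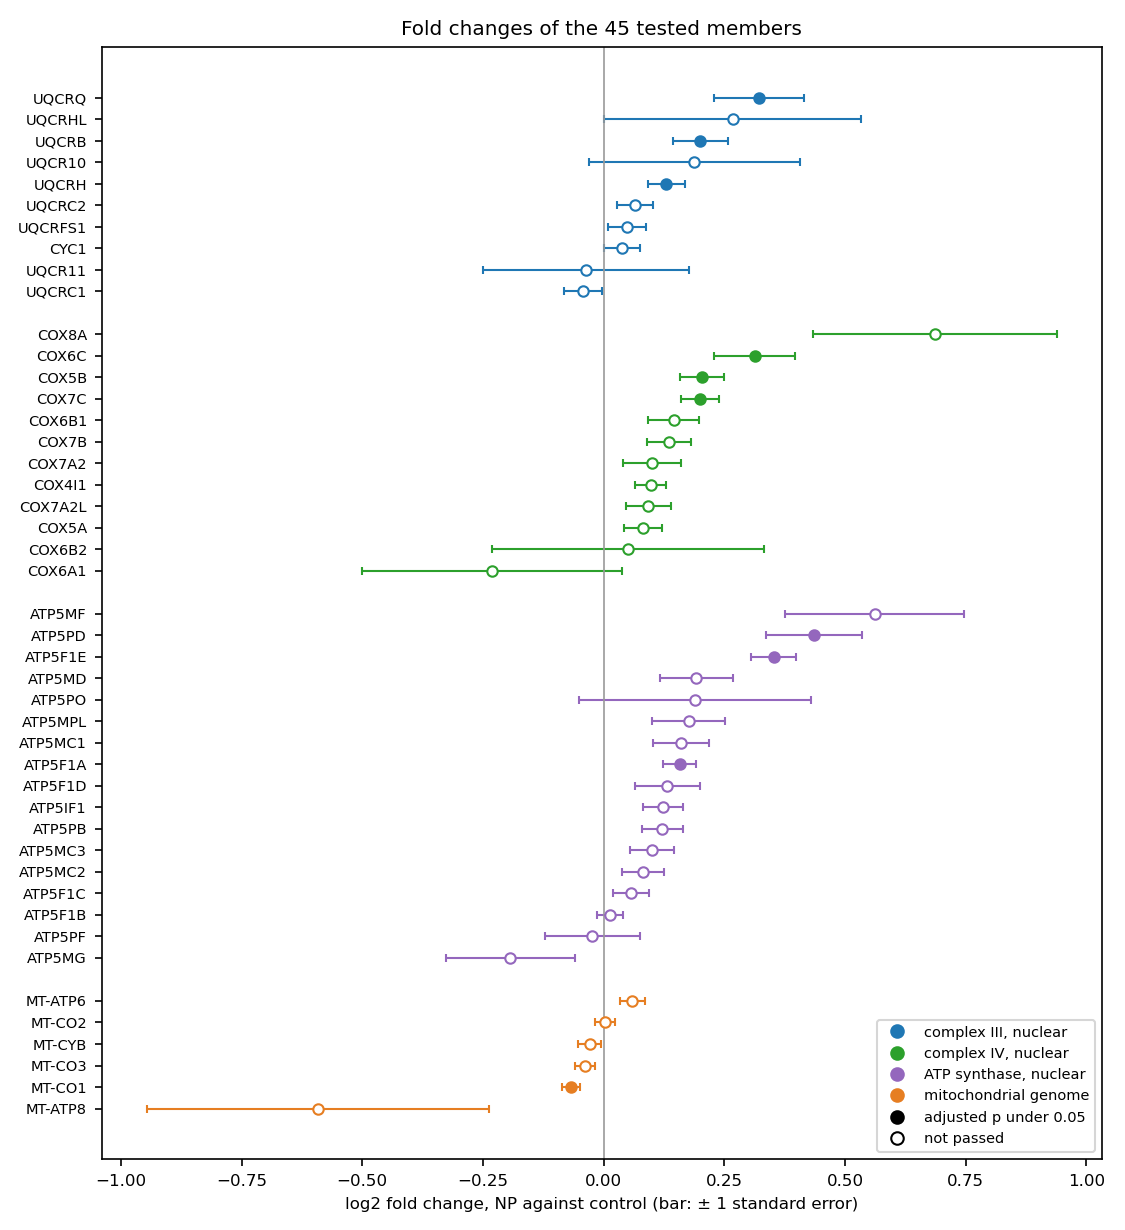
Log2 fold change of NP against control for the 45 tested subunit genes (x axis, with 1 standard error to each side), grouped by complex and genome and ordered by size. Filled points passed an adjusted p of 0.05. Of the 39 nuclear genes 34 lie above 0, and the widest bars belong to genes with few counts such as MT-ATP8 and COX6B2.

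The 6 mitochondrial genes took 3.68% to 3.85% of all counts, against 0.476% to 0.515% for the 46 nuclear genes together. MT-CO1 (ENSG00000198804, mitochondrial genome, 5904 to 7445, plus strand), the catalytic subunit of complex IV that holds its heme and copper center, made up 57.1% and 57.0% of the mitochondrial counts of these complexes in control and 56.2% and 56.1% in NP samples. It had 21453 and 21956 CPM in control and 20809 and 20633 CPM in NP samples. Both NP samples lay below both controls, and the log2 fold change of -0.067 (SE 0.019, edgeR adjusted p = 0.024) is a change of -4.53%. MT-CO1 did not pass in edgeR's exact test (adjusted p = 0.16), without control 2 (0.062), without NP 1 (0.20), without NP 2 (0.31), with the replicate number as a block (0.086) or in limma on log2(FPKM + 1) (0.305) and on log2(FPKM + 0.1) (0.26).

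MT-CO2, the subunit that receives electrons from cytochrome c, had 5577 and 5715 CPM in control and 5717 and 5597 CPM in NP samples, with a log2 fold change of 0.0030. MT-CO3 had 5615 and 5661 CPM in control and 5502 and 5474 CPM in NP samples, with both NP samples below the controls and edgeR adjusted p = 0.40. MT-CYB, cytochrome b of complex III, had 3251 and 3429 CPM in control and 3230 and 3317 CPM in NP samples, and its groups overlapped. MT-ATP6, the channel subunit beside the c ring, had 1653 and 1743 CPM in control and 1766 and 1774 CPM in NP samples (0.060, SE 0.025, edgeR adjusted p = 0.22). It passed without control 2 (log2 fold change 0.096, adjusted p = 0.026). MT-ATP8, whose reading frame overlaps that of MT-ATP6 over 22.2% of its length, was counted far lower, with 31 and 36 counts in control and 25 and 18 counts in NP samples. Reads in the shared part fit both genes, so the counts of MT-ATP8 may not give the level of its RNA. Both NP samples were lower than the controls, without passing (-0.59, SE 0.35, edgeR adjusted p = 0.46). limma on log2(FPKM + 1) called it lower (-0.54 on that scale, adjusted p = 0.040). Copies of mitochondrial DNA in the nuclear genome hold 49.5% of the 50-base words of MT-CO1, 46.7% of those of MT-ATP6, 30.6% of those of MT-CO3 and 28.98% of those of MT-CO2, so the division of their reads between gene and copy depends on the counting.

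Summed over genes, the nuclear subunits had 4742 and 4864 CPM in control and 5168 and 5092 CPM in NP samples. The mitochondrial subunits had 37551 and 38506 CPM in control and 37026 and 36796 CPM in NP samples. For every 100 mitochondrial counts there were 12.6 nuclear counts in each control and 14.0 and 13.8 nuclear counts in the NP samples. The groups did not overlap in any of the 3 measures. With 2 samples a group the smallest p that a two-sided exact permutation test can give is 0.333, and no other test was run on these sums.

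**Figure D3:**
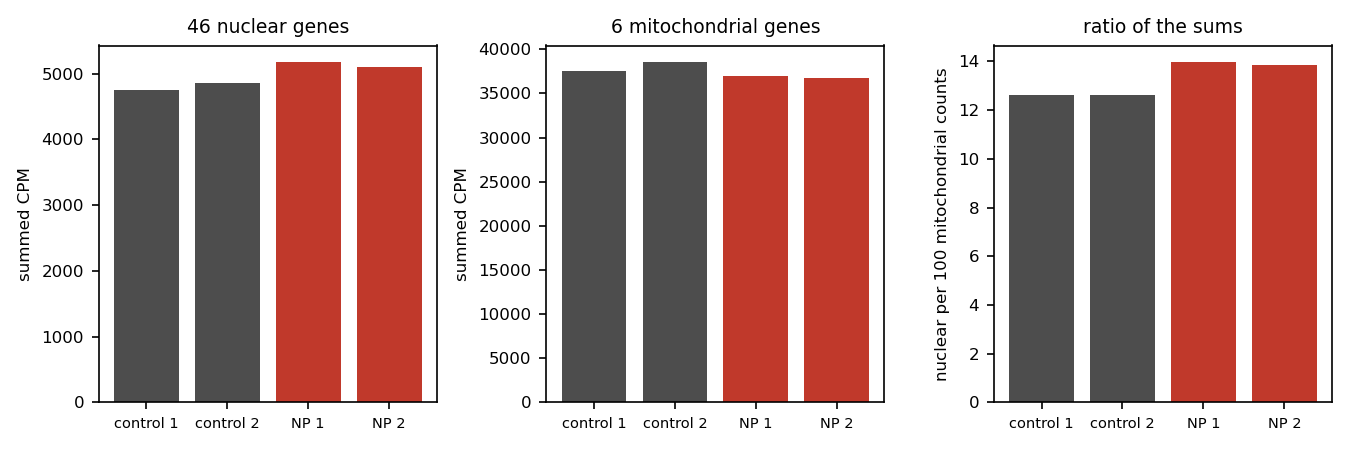
Summed CPM of the 46 nuclear subunit genes (left), of the 6 mitochondrial ones (middle) and nuclear counts for every 100 mitochondrial counts (right), with 1 bar for each sample, grey for control and red for NP. The nuclear sum is higher and the mitochondrial sum lower in both NP samples, and the ratio goes from 12.6 in both controls to 14.0 and 13.8.

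Changes of this size moved with transcript length in these samples, over all genes. Lengths are those of the shortest principal transcript of a gene in GENCODE release 29. The 936 tested genes of 1000 nt or less had a median log2 fold change of 0.081, and 9.72% of them were called higher and 0.321% lower. The 2521 longest of all tested genes had a median of -0.036, and 0.278% of them were called higher and 3.37% lower. In the class of 1000 nt or less, the median of the centred log2 levels was -0.053 in control 1, -0.023 in control 2, 0.044 in NP 1 and 0.038 in NP 2. Of the nuclear subunit genes, 27 of the 39 tested have 1000 nt or less. They had a median of 0.14, and 7 of the 27 rose (25.9%). Of the 12 longer ones 2 rose, ATP5F1A and UQCRB (16.7%, beside 2.35% of tested genes of all lengths). The median of the 12 was 0.061. The principal transcript listed for UQCRB is 5575 nt long, so its place among the longer genes rests on that annotation.

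When length was fitted in each sample and taken out as an offset, 4 subunit genes rose and 4 fell, and over all genes 1.83% were called higher and 1.56% lower. With the longest principal transcript as the length, the 4 that rose were ATP5F1E (0.36, adjusted p = 9.64e-09), ATP5F1A (0.18, adjusted p = 6.38e-05), COX7C (0.16, adjusted p = 0.00389) and UQCRB (0.22, adjusted p = 0.0102). With the shortest one they were ATP5F1E (0.26), ATP5F1A (0.14), UQCRB (0.23) and ATP5PD (0.33), and COX7C did not pass (adjusted p = 0.12). ATP5PD had 0.32 with the longest one and did not pass there (adjusted p = 0.054). UQCRH went from 0.13 to 0.014 and 0.028 under the 2 lengths and did not pass. COX6C went from 0.31 to 0.25 and 0.18, UQCRQ from 0.32 to 0.24 and 0.19, and COX5B from 0.20 to 0.10 and 0.12, and these 3 did not pass under either length. The 4 that fell under both lengths were MT-CO1 (-0.11 and -0.097), MT-CO2 (-0.10 and -0.088), MT-CO3 (-0.13 and -0.12) and MT-CYB (-0.092 and -0.081). The median log2 fold change of the nuclear subunits was then 0.059 or 0.038 and that of the mitochondrial ones -0.11 or -0.093. Whether length or the treatment sets the difference between the groups was not tested.

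**Figure D4:**
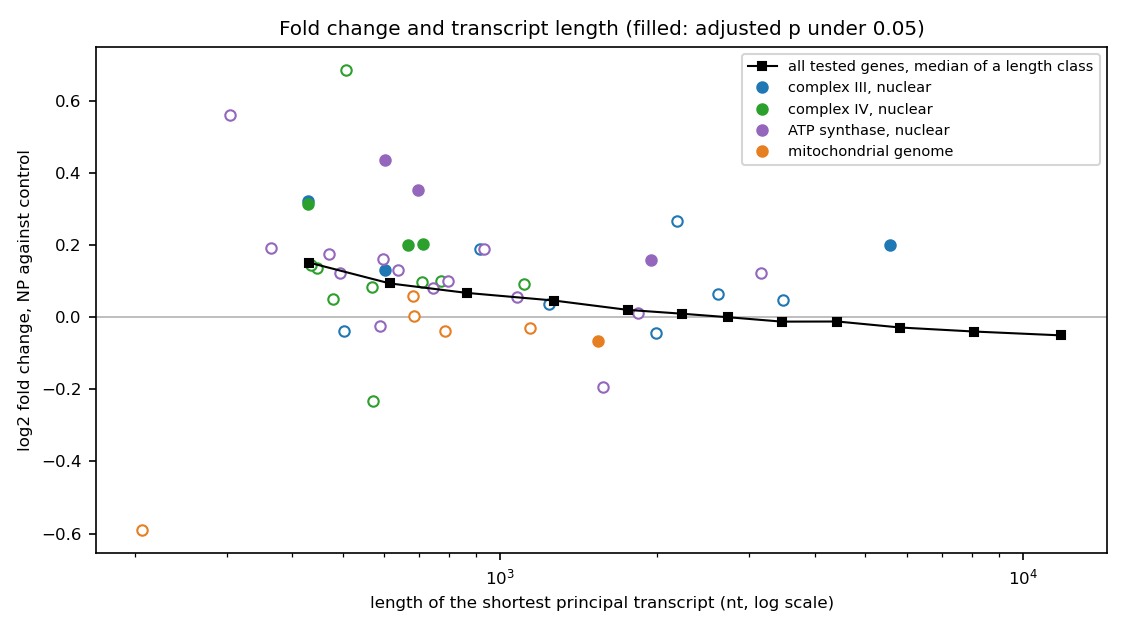
Log2 fold change (y axis) against the length of the shortest principal transcript (x axis, log scale) for the 45 tested subunit genes, colored by complex and genome, filled where the adjusted p was under 0.05. Black squares joined by a line are medians over all tested genes in length classes and go down from short to long. ATP5F1E, ATP5PD, ATP5F1A and UQCRB lie well above the line, COX7C and COX5B also lie above it, and UQCRH lies close to it. UQCRQ and COX6C, at its short end, lie above its level there. The mitochondrial genes within the range of the line lie below it.

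Control sample 1 weighed most in the median log2 fold change of the nuclear subunits. Without it 3 subunit genes rose, ATP5F1E, COX7C and ATP5F1A, and MT-CO1 fell, while calls over all genes went from 2.35% to 0.809% higher. The median of the nuclear subunits was 0.092 without control 1 and 0.14 without control 2. It was 0.124 without NP 1 and 0.125 without NP 2, beside 0.13 with all samples. ATP5F1E passed in all 18 other settings tried, COX7C in 17 and ATP5F1A in 16. The other genes that rose passed in fewer. UQCRB passed in 12 of 18, COX5B in 10 of 18 and UQCRH in 6 of 18. ATP5PD passed in 11 of 17, and COX6C and UQCRQ in 9 of 17 each, as DESeq2 gave these 3 no adjusted p. In DESeq2 COX5B did not pass (adjusted p = 0.054).

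Some subunits had far fewer counts than their partners in the same complex. Of the 46 nuclear genes, 7 share more than 10% of the exon bases of their shortest principal transcript with a second gene on the same strand in GENCODE release 29. These are ATP5MF, ATP5MG, ATP5PO, COX6A1, COX6B2, COX8A and UQCR11, and their mean counts were 42.0 to 180.0, with a median of 60. The median was 1686 counts for the 34 genes that share 10% or less with any gene. For ATP5MF the second gene is ATP5MF-PTCD1, a read-through gene that joins it to its neighbor, which covers 46.2% of the transcript and had 0, 0, 1 and 0 counts. Subunit O of the peripheral stalk, ATP5PO, shares 70.3% of its transcript and had 56 counts in each control and 61 and 62 in the NP samples. Reads that fit 2 genes can be left uncounted by HTSeq, and the way it was run here is not given in the sources used here. Its part in the low counts of these 7 genes was not tested, and the counts may not give the level of their RNA beside that of other subunits. The comparison between groups uses the same gene in all samples. UQCR10 was also low, with 61 to 73 counts a sample and no such overlap. ATP5ME, subunit e, had 2, 1, 5 and 1 counts and shares 49.9% of its transcript with MYL5 on the opposite strand. ATP5MGL, a copy of ATP5MG, had 0, 4, 1 and 0 counts.

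**Figure D5:**
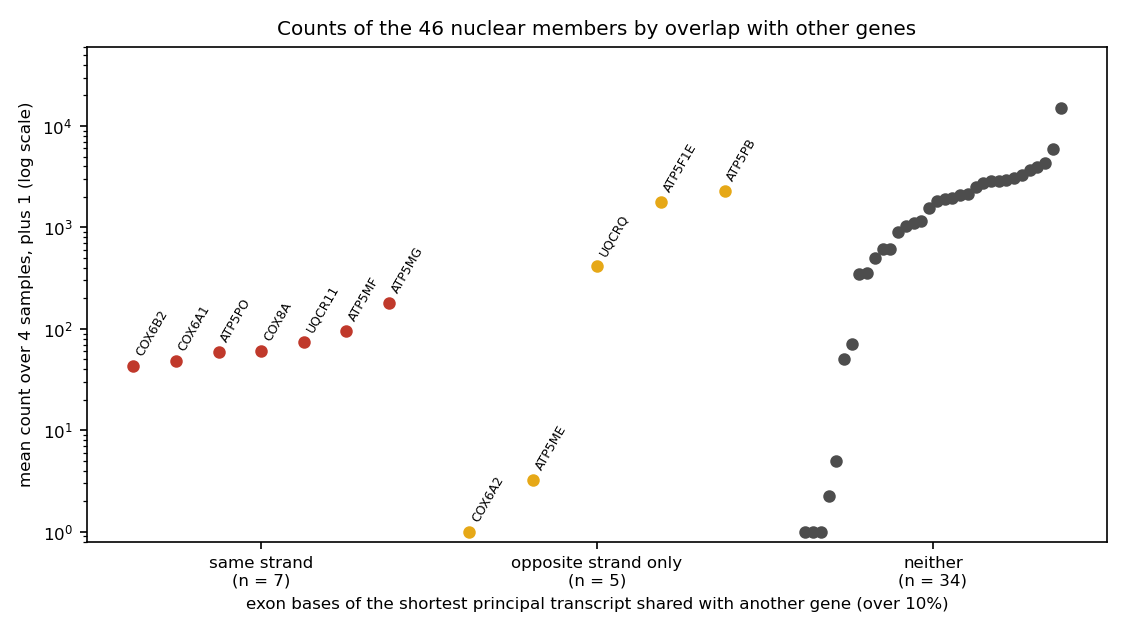
Mean count over the 4 samples, plus 1 (y axis, log scale), of the 46 nuclear subunit genes in 3 classes on the x axis: more than 10% of the shortest principal transcript shared with a gene on the same strand (7 genes, red), with a gene on the opposite strand only (5, yellow), or neither (34, grey). All 7 genes of the first class average 180.0 counts or fewer, and the grey points spread from 0 to 15068 counts.

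Whether the libraries kept strand is not given in the sources used here, so reads of a gene and of its partner on the opposite strand may not be separated. Of the genes that rose, ATP5F1E shares 71.3% of its shortest principal transcript with TUBB1, which had 12 and 19 counts in control and 12 and 16 in NP samples. UQCRQ shares 18.2% with GDF9, which had 14, 13, 26 and 8 counts. The gene lengths in the table also count all exons of a gene, 10908 nt for ATP5F1A and 2238 nt for ATP5F1B, which join in equal number in the F1 head. Their mean FPKM was 25.8 and 436.4, while CPM per kilobase of the shortest principal transcript were 144.9 and 531.3.

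The promoters of the nuclear genes were searched for sites of factors known to act on respiratory genes. RefSeq promoters of GRCh38.p14, from 250 bases before the start to 50 after it, were found for 35 of the 46. The ETS site CCGGAAG, which the factor GABPA binds, was present on either strand in 37.1% of them and in 10.7% of all 27305 promoters. The palindromic site of NRF1 was present in 25.7% and in 6.29% of all, and the site AAGATGGC of YY1 in 11.4% and 3.03%. The GC box GGGCGG was present in 60% and 44.6%. The palindromic estrogen response element and the site TCAAGGTCA of estrogen-related receptors were in none of the 35 windows, and in 0.0659% and 0.359% of all. Of the genes that rose, 7 had a promoter in the table. The ETS site was in 4 of them (COX5B, ATP5PD, UQCRQ and UQCRH) and in 9 of the other 28, and the NRF1 site was in 0 of them and in 9 of the other 28. The other 28 include genes too low to be called. Of the 9 with an NRF1 site, COX8C and ATP5ME were not tested for a change. UQCR11, UQCR10 and ATP5PO averaged only 73, 69.75 and 58.75 counts. No test was run on these numbers of sites. A match describes the letters only. The 100 bases upstream of the annotated gene are shown for 4 of the genes that rose, those with the largest changes in ATP synthase and in complex IV for which the table gave such a stretch. Capitals mark ETS sites and GC boxes on either strand, which adjoin in COX5B, and the COX7C stretch holds neither.
ATP5F1E, chr20:59032383-59032482, minus strand: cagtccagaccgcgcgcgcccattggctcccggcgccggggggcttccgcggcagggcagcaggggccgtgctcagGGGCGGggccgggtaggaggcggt
ATP5PD, chr17:75046986-75047085, minus strand: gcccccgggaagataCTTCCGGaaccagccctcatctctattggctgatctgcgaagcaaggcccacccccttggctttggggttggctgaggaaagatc
COX5B, chr2:97645940-97646039, plus strand: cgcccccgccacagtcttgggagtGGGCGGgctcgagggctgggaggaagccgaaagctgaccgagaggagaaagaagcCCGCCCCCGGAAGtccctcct
COX7C, chr5:86617804-86617903, plus strand: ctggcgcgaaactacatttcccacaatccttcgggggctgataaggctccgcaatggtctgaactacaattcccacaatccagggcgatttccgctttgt

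Genes that work beside these subunits were counted in the same way. Their values are from the main comparison only, and the length offsets and other settings were not examined for them. Over all tested genes 2.35% were called higher. Of the 4 listed carriers and proteins bound to complex IV, 2 rose (50%). NDUFA4, first described in complex I and since placed in complex IV, had 100.4 and 109.1 CPM in control and 121.9 and 118.9 CPM in NP samples (0.20, edgeR adjusted p = 0.00437). HIGD1A, a hypoxia-induced protein that binds complex IV, had 30.8 and 32.8 CPM in control and 39.5 and 41.2 CPM in NP samples (0.34, edgeR adjusted p = 0.00419). CYCS, cytochrome c itself, had a log2 fold change of 0.082 and did not pass. Of the 22 tested assembly factors of complex IV, 2 rose (9.09%) and none fell. They were COA6, a copper-binding protein, with 12.5 and 14.1 CPM in control and 16.7 and 18.4 CPM in NP samples (0.39, edgeR adjusted p = 0.042), and CMC1, with 23.5 and 24.9 CPM in control and 30.3 and 29.9 CPM in NP samples (0.32, edgeR adjusted p = 0.029). None of the 6 assembly factors of complex III, the 4 tested ones of ATP synthase or the 4 subunits of complex II passed.

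Of 13 regulators of respiratory genes 1 rose (7.69%, beside 2.35% of all tested genes) and none fell. ESRRA, a nuclear receptor without a known ligand that activates many respiratory genes, had 94.7 and 89.3 CPM in control and 106.7 and 108.3 CPM in NP samples (0.22, SE 0.049, edgeR adjusted p = 0.00187). NRF1, GABPA and YY1, whose sites were searched above, had log2 fold changes of 0.048, 0.023 and 0.00050. TFAM, which packs and transcribes mitochondrial DNA, had -0.011, and POLRMT, the mitochondrial RNA polymerase, had -0.019. On the mitochondrial genome, the 7 genes of complex I did not move as one. MT-ND3 (0.22), MT-ND4L (0.16) and MT-ND6 (0.15) rose and MT-ND5 fell (-0.097), with adjusted p of 1.25e-06, 0.0117, 0.000382 and 0.00661 from edgeR. The 3 are 42.9% of the 7 and the 1 is 14.3%, beside 2.35% and 1.70% over all tested genes. MT-ND1 (-0.012), MT-ND2 (-0.047) and MT-ND4 (-0.0088), whose positions overlap those of MT-ND4L, did not pass. Those that rose are the shortest of the 7 (346, 297 and 525 nt), and MT-ND5 is the longest (1812 nt). Medians over all genes also went down from short to long. The part of length in these changes was not tested.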

How the data were processed

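COLO205 RNA of 2 control and 2 NP samples was used, grouped by the labels. The authors deposited raw read counts per gene, made with HISAT2 and HTSeq on GRCh38 per the submitters' processing notes, and FPKM values that the authors made from these counts, the gene lengths and the summed counts. No source used here gives their versions or the annotation release. Counts were filtered with filterByExpr (minimum count 10), scaled with TMM and compared with the quasi-likelihood test of edgeR 4.0.16 (R 4.3.3), with Benjamini-Hochberg adjustment over 12616 genes and a threshold of 0.05. Standard errors were taken as the size of the log2 fold change over the root of F. The coefficient of variation beyond counting noise was 2.65%, from 2 samples a group. The steps were tested on simulated data. The subunit genes, the other gene lists, the tests and the rule for named genes were chosen with earlier results of these data known. The rule names each subunit past the threshold, the 15 with the smallest p, the 3 with the highest FPKM of each complex, the mitochondrial genes, paralog sets and ATP5IF1. DESeq2 1.42.0, edgeR's exact test, limma 3.58.1 on log2(FPKM + 1) or log2(FPKM + 0.1), other scalings and filters, each sample left out, a replicate block and offsets for GC content or length were alternatives. The shortest transcript as the length, length and GC content together, and the promoter and overlap descriptions were added after the data were seen. Table positions were used as deposited.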

Additional observations from a re-analysis of the deposited data

How the results depend on the processing

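The main comparison gave 9 subunit genes higher and 1 lower. DESeq2 called 3 higher, beside 0.904% of all tested genes. It gave no adjusted p for 16 subunit genes, among them ATP5PD, UQCRQ and COX6C of the 9. limma called 2 higher with either pseudocount, beside 0.357% of all tested genes with 1 and 0.420% with 0.1. At adjusted p thresholds of 0.01 and 0.1, 5 and 14 were higher, and at 0.01 the count lower was 0. The shares of all tested genes at these thresholds were not taken, so these counts have nothing to be read against. Offsets for transcript length, for the shortest transcript length, and for length and GC content together each gave 4 higher and 4 lower. Over all tested genes these offsets gave 1.76% to 1.93% higher and 1.42% to 1.56% lower. With them the median log2 fold change was 0.059, 0.038 and 0.074 for the nuclear genes and -0.11, -0.093 and -0.12 for the mitochondrial genes, and MT-CO2 turned to -0.10, -0.088 and -0.12. The count lower was 0 in edgeR's exact test and with the mitochondrial genome left out, which removes MT-CO1 from the table. With each sample left out in turn, the medians ranged from 0.092 to 0.14 (nuclear) and from -0.057 to -0.014 (mitochondrial). Apart from the construction of the settings named, the cause of these differences was not tested. With the replicate number as a block, 13 were higher and 0 lower, beside 2.95% and 2.22% of all tested genes. COX4I1, COX6B1, COX7B and ATP5IF1 were added and MT-CO1 was lost (adjusted p = 0.086). The deviations of same-numbered samples correlated at -0.0031, so the numbers were not taken as pairs. The numbers crossed were not run, for the same reason. RLE size factors, library size only, offsets for GC content alone and both other filters on low counts gave 8 or 9 higher and 1 lower. Over all tested genes these settings gave 1.87% to 2.35% higher and 1.24% to 1.93% lower. Genes that averaged under 100 counts, such as COX8A, MT-ATP8 and ATP5MF, had standard errors of 0.19 to 0.35, so that changes of the size seen in the abundant subunits were not detectable in them at this depth.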
